A study of Homo sapiens with 30 samples.

Results

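The step from 100 to 500 µg/mL of a Sayeok-tang ethanol extract was examined across all measured genes in HT29, an established cell line from a human colorectal adenocarcinoma. Its members were the libraries whose treatment label names this extract and dose: 3 libraries at 500 µg/mL and 3 at 100 µg/mL, 6 of the 30 libraries of the series. All cells had been treated for 24 h, and the titles place every library of the series in batch E. Sayeok-tang is a traditional East Asian decoction built on aconite, dried ginger and licorice, and the extract used here was made with 70% ethanol. The series measured messenger RNA after several such herbal formulas at 500, 100 and 20 µg/mL. For context, 3 Sayeok libraries at 20 µg/mL, 3 vehicle libraries (0.1% DMSO per their labels, 2% DMSO per the series text), and the 500 and 100 µg/mL libraries of Bojungikgi-tang (3 and 3) and Banhasasim-tang (2 and 2), also ethanol extracts, are used below. All libraries come from this 1 cell line, and the labels do not say whether each replicate was a culture of its own. The p-values therefore rest only on how these libraries vary, which may be technical.

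Several of the genes described here belong to the NRF2 pathway. NRF2 is a transcription factor that is held in the cytoplasm and degraded through KEAP1, a protein whose cysteines react with electrophiles and oxidants. When KEAP1 is modified, NRF2 accumulates, binds antioxidant response elements in DNA, and raises enzymes that make glutathione, regenerate NADPH and reduce or conjugate reactive compounds. In the intestinal epithelium, these enzymes, among them aldo-keto reductases and UDP-glucuronosyltransferases, also process compounds taken up with food and drugs.

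The 6 libraries held between 36273849 and 55962921 expected counts, so that 3 counts, the limit a count of 0 allows, correspond to 0.0536 to 0.0827 counts-per-million (CPM). Sayeok 100 µg/mL replicate 2 stood apart from the others. It had the lowest share of counts from cytosolic ribosomal protein genes (4.594%, against 5.19% to 5.476% in the other 5 libraries) and from mitochondrial genes (6.06%, against 7.572% to 8.8%). On the first principal component of the 9 Sayeok libraries, which held 34.36% of the variance, it lay at -9.1, against -1.12 and -2.17 for the other libraries at 100 µg/mL and 5.6 to 10.57 for those at 500 µg/mL. The main count is given below with and without it, and for list counts and genes that depended on a library, the text gives how many of the 6 leave-one-out fits, each without 1 library of either dose, still called them. Counts against the vehicle range and those shared with other extracts are given with all libraries only. Epithelial markers were abundant. EPCAM averaged 515 CPM at the lower and 528 CPM at the higher dose, and KRT8 averaged 5590 and 5260 CPM. Of 9 fibroblast and endothelial markers, 6 fell below the expression filter, among them COL1A2, PDGFRB and VWF, and of 8 leukocyte markers, 4 did, among them PTPRC and CD3E. The summed level of the leukocyte list was 9.94 to 10.9 CPM at the lower and 10.5 to 11 CPM at the higher dose, and that of the fibroblast and endothelial list was 4.03 to 4.49 and 3.33 to 4.8 CPM.

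Between 100 and 500 µg/mL few genes were called, and their changes were mostly small. The rises included 4 of 10 aldo-keto reductases, 12 of 24 NRF2-list genes and 4 of 12 UDP-glucuronosyltransferases, and the urea transporter gene SLC14A1 fell the most among genes of at least 5 CPM. Of 18783 genes tested, 325 (1.73%) passed edgeR's quasi-likelihood test at a Benjamini-Hochberg adjusted p under 0.05. At 500 µg/mL, 129 were higher (0.687% of the tested genes) and 196 were lower (1.04%). These shares are the background for the counts of called genes on the lists below. Before adjustment, 2576 genes (13.7%) had a p under 0.05 in this test, against 885 (4.71%) between 100 and 20 µg/mL. Genes that were not called may therefore have changed as well. The median log2 fold change was 0.32 among the genes called higher and -0.36 among those called lower, and the median over all tested genes was close to 0 (-0.0015). Of the called genes, only 25 rose and 32 fell by more than 1.5-fold. The libraries of the doses did not overlap for 324 of the 325 called genes, whereas they did not overlap for 21.5% of all tested genes. Without Sayeok 100 µg/mL replicate 2 the count of called genes was 155 (68 higher and 87 lower), of which 149 were among the 325. Leaving out Sayeok 100 µg/mL replicate 1 gave 183, Sayeok 500 µg/mL replicate 2 also 183, and Sayeok 500 µg/mL replicate 3 gave 190.

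**Figure D1:**
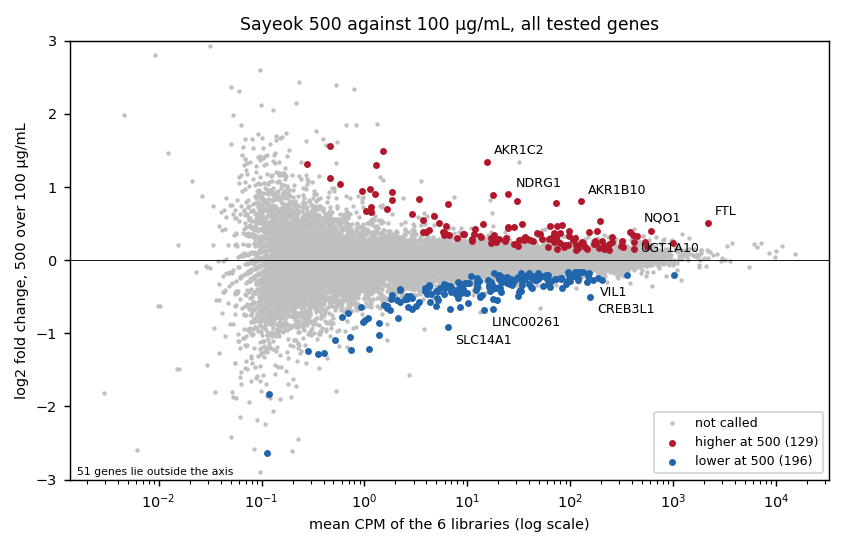
Log2 fold change at 500 over 100 µg/mL Sayeok extract (vertical axis) against the mean level of the 6 libraries in CPM (horizontal axis, log scale) for the tested genes, each point a gene. The 129 genes called higher (red) and the 196 called lower (blue) mostly lie within a log2 fold change of 1 of the zero line, and the 51 genes beyond ±3 are not drawn.

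The called genes were more highly expressed than the average tested gene. Their median level at 100 µg/mL was 39.9 CPM for those that rose and 19.0 CPM for those that fell, against 10.4 CPM for all tested genes. Protein-coding genes made up 121 of the 129 higher and 189 of the 196 lower genes, against 72.8% of all tested genes. The test detects a change of a given size more readily at higher counts. These values therefore describe the called set and not which genes the dose step affected. Of the 17 called genes that changed more than 2-fold, 7 up and 10 down, only AKR1C2 reached a mean of 5 CPM in either group. The others were at low levels, such as NDUFA4L2, a mitochondrial complex subunit paralog, which rose from 0.691 to 0.864 CPM at 100 µg/mL to 1.64 to 2.69 CPM at 500 µg/mL (log2 fold change 1.49 ± 0.192, adjusted p = 3.34e-05). ATOH8, a transcription factor of the atonal family, fell from 0.907 to 1.18 CPM to 0.389 to 0.514 CPM (-1.22 ± 0.194, adjusted p = 0.000564). These 2 low-level genes lie outside the rule for named genes and were chosen after their values were seen. Here and below, a value after ± beside a log2 fold change is its standard error (SE), and in bulk RNA, fewer cells that express a gene and less RNA per cell cannot be told apart.

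The largest rise among genes of at least 5 CPM was that of AKR1C2, which encodes an aldo-keto reductase that reduces steroids and reactive carbonyls and lies at chr10:4987400-5018031 (GRCh38, minus strand). Its level was 9.33, 8.77 and 8.09 CPM in the 3 libraries at 100 µg/mL and 22.9, 21.6 and 22.3 CPM at 500 µg/mL. The groups did not overlap, and the log2 fold change was 1.35 ± 0.083 (adjusted p = 1.54e-10, higher in 3 of 3 libraries). Its neighbour AKR1C1 (chr10:4963253-4983283, plus strand), a reductase that inactivates progesterone, stood at 13.8, 11.8 and 11.9 CPM and then at 22.3, 23.5 and 23.8 CPM. Its log2 fold change was 0.89 ± 0.081 (adjusted p = 2.21e-07). AKR1C3 (chr10:5035354-5107686), the third gene of the cluster, which makes testosterone from androstenedione and reduces prostaglandins, was at 60.0, 47.2 and 52.4 CPM and then at 95.8, 98.4 and 79.5 CPM. It varied more between libraries, and its change of 0.78 ± 0.157 (adjusted p = 0.0122) was called in 4 of the 6 leave-one-out fits (adjusted p = 0.0142 to 0.0845). The fits that lost it were those without Sayeok 500 µg/mL replicate 2 and without Sayeok 100 µg/mL replicate 2.

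AKR1B10 (chr7:134527592-134541408), a reductase of retinal and other aldehydes, had the highest level of the aldo-keto reductases that rose. It measured 95.3, 87.1 and 94.4 CPM at 100 µg/mL, and 159, 162 and 164 CPM after 500 µg/mL, a log2 fold change of 0.81 ± 0.060 (adjusted p = 5.99e-09). Of the 10 aldo-keto reductase genes that passed the expression filter, these 4 rose and none fell. The median log2 fold change of the 10 was 0.53, against -0.0015 for all tested genes. This median depended on which low-level members were tested. With fewer members passing the filter, it was 0.43 at a minimum count of 50 and 0.27 in a fit of only these 2 doses. The remaining 6, which include AKR1A1 (0.01) and AKR7A2 (-0.00), did not pass the test, and AKR1B1, the aldose reductase of the polyol pathway, had a fitted change of 0.85 at a mean of only 0.12 and 0.212 CPM (adjusted p = 0.49). In the leave-one-out fits, 3 or 4 of the 10 rose.

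**Figure D2:**
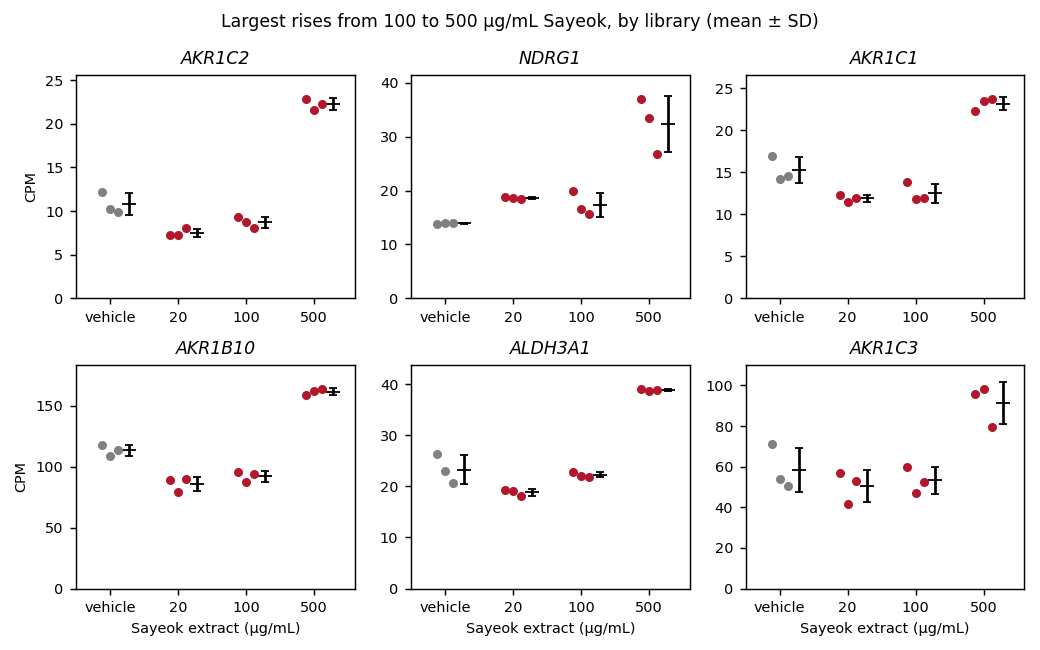
Level in CPM (vertical axes, from 0) of the 6 genes of at least 5 CPM with the largest rises, in the vehicle libraries (grey) and at 20, 100 and 500 µg/mL Sayeok extract (red), with each library as a point and the mean ± SD beside it (n = 3). The choice of genes required the libraries at 500 µg/mL to lie above those at 100 µg/mL. In each panel the 3 libraries at 500 µg/mL also lie above those at 20 µg/mL. For AKR1C2, AKR1C1 and AKR1B10 the libraries at 100 µg/mL lie below the vehicle range.

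The AKR1C genes are close copies of each other, which matters for how reads were assigned to them. Of the 100-base stretches in the protein-coding transcripts of AKR1C2, 26.1% also occur in AKR1C1, and 16.1% of those of AKR1C1 occur in AKR1C2, so the split between the 2 genes rests on the authors' read assignment. AKR1C3 shares 0.861% of its stretches with AKR1C1 and 3.26% with AKR1C2. The similarity extends to the DNA before the genes. Over the 250 bases upstream of the RefSeq start sites, AKR1C1 and AKR1C2 had 245 of 246 aligned bases in common (99.6%), against 76.8% for AKR1C1 with AKR1C3 and 77.2% for AKR1C2 with AKR1C3. The 120 bases directly upstream of each start are given here, 5′ to 3′ on the strand of the gene (RefSeq, GRCh38.p14), to show how close the 3 neighbours that rose are: chr10:4963295-4963414 (plus strand) for AKR1C1, chr10:5003858-5003977 (minus strand) for AKR1C2 and chr10:5048661-5048780 (plus strand) for AKR1C3.
AKR1C1: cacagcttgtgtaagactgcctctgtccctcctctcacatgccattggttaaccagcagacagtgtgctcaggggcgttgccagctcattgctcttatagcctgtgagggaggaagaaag
AKR1C2: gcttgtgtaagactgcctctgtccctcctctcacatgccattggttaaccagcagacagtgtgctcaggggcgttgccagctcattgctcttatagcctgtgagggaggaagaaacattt
AKR1C3: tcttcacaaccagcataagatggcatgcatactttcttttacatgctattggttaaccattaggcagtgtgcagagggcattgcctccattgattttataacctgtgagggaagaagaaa
None of the 3 windows holds the letters of an antioxidant response element, TGACNNNGC, on either strand, nor does the whole 300-base promoter entry of any of these genes (250 bases before to 50 after the start).

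On the NRF2 list of 24 genes, which covers glutathione and thioredoxin enzymes and other textbook targets, 12 rose and 0 fell, with a median log2 fold change of 0.29 and 23 of the 24 values above 0. GCLM encodes the modifier subunit of glutamate-cysteine ligase, the rate-limiting enzyme of glutathione synthesis. It measured 70.3, 66.9 and 71.8 CPM at 100 µg/mL, and 91.0, 101 and 98.9 CPM after 500 µg/mL (log2 fold change 0.48 ± 0.048, adjusted p = 7.07e-07). The catalytic subunit gene GCLC went from 82.2, 82.8 and 86.0 CPM to 106, 115 and 108 CPM (0.39 ± 0.044, adjusted p = 4.66e-06). Both subunits of the ligase thus rose. SLC7A11, the cystine importer that feeds glutathione synthesis, stood at 155, 158 and 163 CPM and then at 218, 228 and 243 CPM (0.53 ± 0.069, adjusted p = 3.34e-05).

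Among the redox enzymes of the list, NQO1, a quinone reductase, measured 553, 498 and 518 CPM at 100 µg/mL, and 668, 717 and 685 CPM after 500 µg/mL (log2 fold change 0.40 ± 0.060, adjusted p = 0.000256). TXNRD1, thioredoxin reductase, rose from 357 to 365 CPM to 448 to 471 CPM (0.35 ± 0.043, adjusted p = 2.21e-05). The heme oxygenase gene HMOX1 went from 10.5, 9.76 and 10.1 CPM to 13.3, 14.0 and 13.4 CPM (0.43 ± 0.062, adjusted p = 0.000164). In each of these 3 genes the lowest library at 500 µg/mL exceeded the highest at 100 µg/mL. SQSTM1, which encodes the autophagy receptor p62 that binds KEAP1, rose from 376 to 393 CPM to 452 to 458 CPM (0.25 ± 0.045, adjusted p = 0.00195), and TRIM16L, a gene of the tripartite motif family, from 11.5 to 12 CPM to 16.1 to 16.9 CPM (0.49 ± 0.073, adjusted p = 0.000265). The list's other rises were SRXN1, EPHX1 and ABCC2, with log2 fold changes of 0.28, 0.33 and 0.97. ABCC2 was called in 5 of the 6 leave-one-out fits, and not without Sayeok 100 µg/mL replicate 1 (adjusted p = 0.0553).

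FTL, the ferritin light chain that stores iron, was the most abundant gene to rise on this list. Its libraries at 100 µg/mL measured 1900, 1450 and 2010 CPM and those at 500 µg/mL 2520, 2570 and 2560 CPM, with replicate 2 at 100 µg/mL the lowest of the 6. The change was 0.51 ± 0.112 (adjusted p = 0.0169) with that library and 0.38 (adjusted p = 0.107) without it. FTL was called in 3 of the 6 leave-one-out fits, and also lost its call without Sayeok 500 µg/mL replicate 2 or 3. At 500 µg/mL the level overlapped that of the vehicle libraries, which held 2960, 2370 and 2490 CPM. Members of the list that did not pass the test include TXN (0.27), PRDX1 (0.24) and FTH1 (0.23), all abundant. Of the 24, 11 or 12 rose in each leave-one-out fit.

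Antioxidant response element letters were looked for in RefSeq promoter entries, which exist for 9 of the 12 NRF2-list genes that rose. TGACNNNGC, searched on both strands, occurs in 2 of those 9, GCLM and TXNRD1, and in 2 of the 7 entries for list members that were not called. Over all tested genes with an entry, 14.9% of 11946 promoters of the same length held it, against 17.3% of the 104 entries for genes called higher and 16.2% of the 148 for genes called lower. The 120 bases before the starts of GCLM (chr1:93909431-93909550, minus strand) and TXNRD1 (chr12:104215659-104215778, plus strand) are shown because these are the list members that both rose and hold the letters, which are in capitals. In GCLM they read on the opposite strand, and TXNRD1 holds another match that runs past the start and is not marked.
GCLM: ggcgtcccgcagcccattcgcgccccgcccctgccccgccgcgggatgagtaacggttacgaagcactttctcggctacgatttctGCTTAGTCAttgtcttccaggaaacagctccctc
TXNRD1: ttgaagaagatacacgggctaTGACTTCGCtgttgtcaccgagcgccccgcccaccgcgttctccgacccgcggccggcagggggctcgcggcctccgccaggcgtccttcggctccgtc
A match describes the letters only, and their absence says nothing of the factor. Cores of other response elements were also counted, on both strands. The hypoxia response element core ACGTG occurs in 28.8% of the promoters of genes called higher, 16.2% of those called lower and 26.2% of all, and the xenobiotic response element core GCGTG in 46.2%, 38.5% and 49.0%. TGATGNAA, the element bound by C/EBP and ATF factors, occurs in 3.85%, 1.35% and 1.8%.

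Genes that supply NADPH, the reducing agent used by the reductases above, also rose in part. Of 12 genes of the pentose phosphate pathway and NADPH supply, 4 rose and 0 fell, against 0.687% and 1.04% of all tested genes. The list's median log2 fold change was 0.074. ME1, the cytosolic malic enzyme, stood at 96.0 to 98.6 CPM and then at 116 to 122 CPM (0.29 ± 0.040, adjusted p = 0.0001). TKT and PGD changed by 0.19 and 0.14 and were called in 2 and 1 of the 6 leave-one-out fits (adjusted p = 0.0197 to 0.11 and 0.0466 to 0.167). The list held 2 to 4 called genes in those fits, with 2 in each fit that left out replicate 1 or 2 of either dose.

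ALDH3A1, an aldehyde dehydrogenase that oxidises lipid aldehydes, was also among the largest rises. It measured 22.8, 22.1 and 21.9 CPM at 100 µg/mL, and 39.1, 38.7 and 38.9 CPM after 500 µg/mL, a log2 fold change of 0.80 ± 0.070 (adjusted p = 1.07e-07). Among 17 aldehyde dehydrogenase genes it was joined by ALDH3A2, which oxidises fatty aldehydes (0.25 ± 0.040, adjusted p = 0.000606), while ALDH5A1, of the GABA degradation pathway, fell from 10.8, 12.4 and 11.3 CPM to 8.37, 8.23 and 8.64 CPM (-0.45 ± 0.082, adjusted p = 0.00197). The median of the 17 was -0.039.

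ALDH3A1 and NQO1 are also on the list of targets of AhR, the receptor for dioxins and plant indoles, of which 5 of 8 tested genes rose and 0 fell (median 0.30). The classical target CYP1A1 was low, at 0.587, 0.607 and 0.711 CPM and then at 1.52, 0.849 and 1.36 CPM (0.95 ± 0.218, adjusted p = 0.0207). It was called in 2 of the 6 leave-one-out fits (adjusted p = 0.00251 to 0.128), those without Sayeok 500 µg/mL replicate 2 or Sayeok 100 µg/mL replicate 3. The list count was 3 or 4 in the leave-one-out fits, and 3 without Sayeok 100 µg/mL replicate 1 or 2 or Sayeok 500 µg/mL replicate 3. TIPARP, another target of AhR, rose in the main fit. It was called in 1 of the 6 leave-one-out fits (log2 fold change 0.158 to 0.251, adjusted p = 0.0201 to 0.236). CYP1B1, a target of the same receptor at a far higher level, measured 59.4, 62.0 and 59.9 CPM and then 64.7, 61.4 and 64.5 CPM, so that the groups overlapped (0.071 ± 0.044, adjusted p = 0.516).

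UDP-glucuronosyltransferases attach glucuronic acid to drugs, bilirubin and plant phenols, and 4 of the 12 tested rose, all from the UGT1A locus. UGT1A10 measured 384, 403 and 398 CPM at 100 µg/mL, and 484, 499 and 507 CPM after 500 µg/mL (log2 fold change 0.33 ± 0.038, adjusted p = 6.78e-06). UGT1A6 measured 48.7, 56.1 and 54.1 CPM and then 68.1, 74.0 and 76.9 CPM (0.46 ± 0.055, adjusted p = 1.12e-05). UGT1A8 and UGT1A1 changed by 0.38 and 0.36. These genes share their last exons: 54.3% of the 100-base stretches of UGT1A6, 62.4% of those of UGT1A8 and 48.7% of those of UGT1A1 also occur in UGT1A10, so they are not 4 independent measurements. The 4 UGT2B and UGT2A genes tested gave values from -0.67 to 0.017, and none was called. The list of UDP-glucuronosyltransferases had 4 called genes in each leave-one-out fit. On the list of PXR and CAR targets, 3 of 10 rose (2 to 4 in the leave-one-out fits, and 2 without Sayeok 100 µg/mL replicate 1): UGT1A1, the efflux pump gene ABCG2 (94.2, 98.4 and 94.7 CPM to 111, 121 and 115 CPM, 0.27 ± 0.048, adjusted p = 0.00172) and ABCC2.

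ATF4 is the transcription factor of the amino acid response. Of 20 of its targets, 5 rose and 0 fell, with a median log2 fold change of 0.19. ASNS, asparagine synthetase, measured 58.7, 62.8 and 61.3 CPM at 100 µg/mL, and 78.5, 80.5 and 76.9 CPM after 500 µg/mL (0.37 ± 0.042, adjusted p = 5.23e-06). CHAC1, which breaks down glutathione, stood at 3.24, 2.96 and 2.91 CPM and then at 4.26, 4.69 and 4.42 CPM (0.55 ± 0.092, adjusted p = 0.000878). DDIT4, an inhibitor of mTORC1, rose by 0.44 ± 0.075 (adjusted p = 0.00115). PSAT1 and SHMT2, of serine and glycine synthesis, changed by 0.20 and 0.17 and were called in 2 and 1 of the 6 leave-one-out fits (adjusted p = 0.00669 to 0.119 and 0.0366 to 0.229). The list count was 3 to 5 in those fits, and 3 without Sayeok 100 µg/mL replicate 1 or 2 or Sayeok 500 µg/mL replicate 3. Other members gave values near 0, such as SESN2 (0.044) and PYCR1 (-0.014), and ATF3 (0.41) and DDIT3 (0.24) did not pass the test.

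Amino acid transporters moved in both directions, with 4 of 19 higher and 2 lower, against 0.687% and 1.04% of all tested genes. SLC7A11, SLC6A9, SLC3A2 and SLC38A2 rose, while SLC6A20, a proline transporter of the brush border, fell from 11.8, 12.5 and 12.2 CPM to 7.67, 8.04 and 8.64 CPM (-0.58 ± 0.064, adjusted p = 3.62e-06). SLC6A14 fell at a level under 1 CPM. SLC7A11 and SLC6A20 were called in all 6 leave-one-out fits, SLC38A2 in 3, SLC6A9 in 2 and SLC3A2 in 0 (adjusted p = 0.0515 to 0.114). In the fits without Sayeok 100 µg/mL replicate 1 or 2 or Sayeok 500 µg/mL replicate 3, 1 member of the list was higher and 1 lower. SLC38A4, a transporter of cationic and neutral amino acids that is not on the list, rose from 3.70, 3.68 and 3.78 CPM to 5.12, 5.53 and 6.36 CPM (0.60 ± 0.11, adjusted p = 0.002).

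NDRG1, a gene known for its induction by hypoxia and iron loss, had the second largest rise of the genes of at least 5 CPM. It measured 19.9, 16.6 and 15.6 CPM at 100 µg/mL, and 37.1, 33.4 and 26.8 CPM after 500 µg/mL. The 500 µg/mL libraries spread over more than 10 CPM, and the log2 fold change was 0.91 ± 0.143 (adjusted p = 0.00101). In a fit of only the libraries of these 2 doses, the adjusted p was 0.059. Of 25 glycolysis and hypoxia genes, 5 rose and 0 fell, with a median of 0.14. PFKFB4, which makes the glycolytic activator fructose 2,6-bisphosphate, measured 4.78, 4.67 and 3.78 CPM and then 6.64, 6.22 and 6.03 CPM (0.51 ± 0.106, adjusted p = 0.00816), and was not called without Sayeok 100 µg/mL replicate 3 (adjusted p = 0.0605). ENO2, P4HA1 and LDHA changed by 0.26, 0.28 and 0.23, and without Sayeok 100 µg/mL replicate 2 the last 2 were not called (adjusted p = 0.0711 and 0.0852), which left 3 of the list. P4HA1 also lost its call without Sayeok 500 µg/mL replicate 2. The hypoxia genes CA9 (0.18), VEGFA (0.14) and BNIP3 (-0.27) did not pass the test.

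ABCG1, a cholesterol exporter induced by the oxysterol receptor LXR, measured 4.50, 5.13 and 4.90 CPM at 100 µg/mL, and 7.54, 8.26 and 9.0 CPM after 500 µg/mL (log2 fold change 0.77 ± 0.080, adjusted p = 1.43e-06). It was 1 of 3 risen genes among 8 LXR targets. The others were MYLIP, which degrades the LDL receptor (0.30 ± 0.054, adjusted p = 0.00195), and LPCAT3 (0.21 ± 0.054, adjusted p = 0.0375). LPCAT3 was called in 1 of the 6 leave-one-out fits, that without Sayeok 100 µg/mL replicate 1 (adjusted p = 0.0372 to 0.307). ABCA1, another LXR target, had a value of 0.057. Of 10 fatty acid synthesis genes, edgeR called 0 and DESeq2 called 1, higher; edgeR called 1, lower, without Sayeok 500 µg/mL replicate 2. FABP1 and PDK4 were the 2 called among 16 genes of PPAR signalling and fatty acid oxidation, and they were called in 3 and 1 of the 6 leave-one-out fits (adjusted p = 0.00583 to 0.138 and 0.0212 to 0.288).

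Further genes with large rises belong to no list. TRIB2, a pseudokinase, went from 5.12, 4.98 and 5.55 CPM to 7.32, 7.10 and 7.19 CPM (log2 fold change 0.47 ± 0.079, adjusted p = 0.00104). EMP1, an epithelial membrane protein, went from 28.7, 26.0 and 29.4 CPM to 38.5, 39.3 and 40.3 CPM (0.49 ± 0.053, adjusted p = 3.34e-06). TRIM31, a ubiquitin ligase of the intestinal epithelium, went from 161, 154 and 156 CPM to 213, 202 and 208 CPM (0.40 ± 0.043, adjusted p = 2.25e-06). In all 3 genes the doses were separated by more than their spread.

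The largest fall among genes of at least 5 CPM was that of SLC14A1 (chr18:45687025-45752520), which encodes a urea transporter. Its libraries measured 8.46, 8.33 and 8.60 CPM at 100 µg/mL, and 3.96, 5.00 and 4.42 CPM after 500 µg/mL (log2 fold change -0.92 ± 0.089, adjusted p = 5.65e-07). LINC00261, a long non-coding RNA of the endoderm at chr20:22547671-22578642, measured 17.5, 17.4 and 19.0 CPM and then 11.1, 11.6 and 11 CPM (-0.68 ± 0.065, adjusted p = 4.75e-07). ATP6V1B1, a subunit of the proton pump V-ATPase, measured 22.1, 21.9 and 22.0 CPM and then 13.8, 14.1 and 13.6 CPM (-0.67 ± 0.066, adjusted p = 7.07e-07). In these 3 genes every library at 500 µg/mL lay below every vehicle library as well. RASA4B showed 8.60, 8.68 and 8.03 CPM and then 6.25, 5.02 and 4.53 CPM (-0.67 ± 0.152, adjusted p = 0.0204), but 87.1% of its 100-base stretches also occur in its near-identical copy RASA4, which was called lower too, and it was called in 2 of the 6 leave-one-out fits (adjusted p = 0.0122 to 0.115), those without Sayeok 500 µg/mL replicate 1 or Sayeok 100 µg/mL replicate 3.

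**Figure D3:**
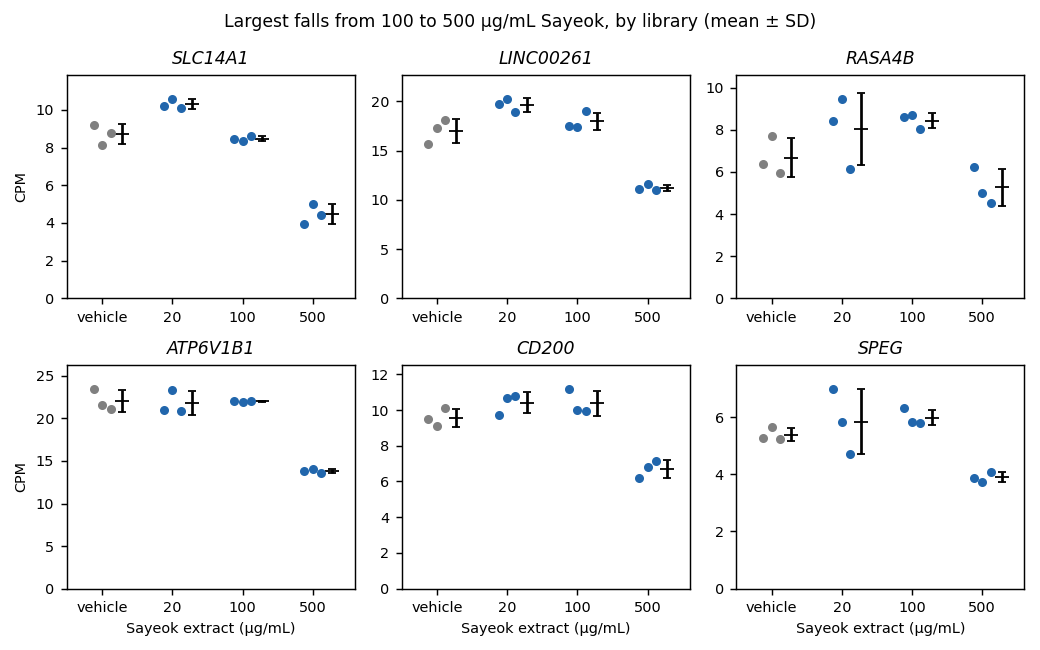
Level in CPM (vertical axes, from 0) of the 6 genes of at least 5 CPM with the largest falls, in the vehicle libraries (grey) and at 20, 100 and 500 µg/mL Sayeok extract (blue), with each library as a point and the mean ± SD beside it (n = 3). The choice of genes required the libraries at 500 µg/mL to lie below those at 100 µg/mL. For RASA4B the libraries at 500 µg/mL overlap the vehicle range.

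The other genes among the 15 largest falls had varied known roles. CD200, an immune inhibitory ligand, measured 11.2, 9.98 and 9.94 CPM at 100 µg/mL, and 6.17, 6.81 and 7.14 CPM after 500 µg/mL (-0.63 ± 0.080, adjusted p = 2.47e-05). DLL4, a Notch ligand, measured 6.26, 6.91 and 5.18 CPM and then 4.41, 3.89 and 4.28 CPM (-0.55 ± 0.102, adjusted p = 0.00239). CREB3L1, a membrane-bound transcription factor of the secretory pathway, was the most abundant of the 15 largest falls, at 186, 190 and 172 CPM and then at 128, 129 and 130 CPM (-0.50 ± 0.058, adjusted p = 6.78e-06). By the rule that chose them, these falls left no overlap between the doses. The kinase gene SPEG, the phospholipase gene PLA2G4F, the ubiquitin ligase gene RNF144B and the peptidase-like gene NAALADL2 fell by log2 values of -0.62, -0.52, -0.50 and -0.55, and MEGF6 by -0.57.

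VIL1, on the enterocyte list, MYO7B and CLIC5 fell. VIL1, which encodes the actin-bundling protein villin, measured 183, 181 and 178 CPM at 100 µg/mL, and 152, 146 and 152 CPM after 500 µg/mL (-0.27 ± 0.036, adjusted p = 5.08e-05). MYO7B, a brush border myosin, stood at 5.44, 5.97 and 6.59 CPM and then at 4.43, 4.04 and 4.11 CPM (-0.51 ± 0.089, adjusted p = 0.00118). CLIC5, a chloride channel family protein linked to the cortical cytoskeleton, stood at 20.8, 22.1 and 20.5 CPM and then at 14.5, 14.3 and 15.0 CPM (-0.53 ± 0.067, adjusted p = 2.5e-05). Of the 17 enterocyte genes, 3 rose and 1 fell, against 0.687% and 1.04% of all tested genes. VIL1 fell while KRT20, a keratin of differentiated colonocytes, rose from 235, 212 and 231 CPM to 279, 276 and 285 CPM (0.31 ± 0.051, adjusted p = 0.00074), as did CEACAM6 (0.30 ± 0.055, adjusted p = 0.00244) and FABP1. The median of the 17 was -0.13, and 2 or 3 rose in the leave-one-out fits.

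Of 18 goblet cell and mucin genes, 2 fell and 0 rose, against 1.04% and 0.687% of all tested genes. The median log2 fold change of the 18 was -0.17. MUC13, a membrane mucin, measured 131, 128 and 132 CPM and then 110, 108 and 108 CPM (-0.27 ± 0.043, adjusted p = 0.000716). REG4, a secreted lectin of goblet and enteroendocrine cells, measured 20.2, 18.0 and 19.1 CPM and then 14.4, 14.5 and 15.0 CPM (-0.39 ± 0.090, adjusted p = 0.0226). MUC13 was called in all 6 leave-one-out fits, but REG4 in 1, that without Sayeok 100 µg/mL replicate 2 (adjusted p = 0.0388 to 0.123), so that the other 5 fits left 1 called gene on the list. MUC2 (-0.34), the secreted gel-forming mucin, did not pass the test. Of 19 genes on the list of sodium pumps and ion transport, 3 fell, against 1.04% of all tested genes. They were SLC14A1, which encodes a urea transporter and not an ion transporter, the chloride channel gene CFTR and the potassium channel gene KCNQ1. CFTR measured 194, 213 and 197 CPM and then 169, 172 and 167 CPM (-0.25 ± 0.059, adjusted p = 0.0248), a level inside the vehicle range of 151 to 182 CPM. CFTR was called in 1 of the 6 leave-one-out fits, that without Sayeok 100 µg/mL replicate 1 (adjusted p = 0.0482 to 0.19), and KCNQ1 in 3 (adjusted p = 0.00873 to 0.122). SLC14A1 was called in all 6. The list count was 1, SLC14A1 alone, without Sayeok 100 µg/mL replicate 2 or Sayeok 500 µg/mL replicate 3 and 2 in the other fits. NOX1, the NADPH oxidase of the colon, was the called member of the 7 NADPH oxidase genes, at 20.1, 19.8 and 20.5 CPM and then at 14.9, 14.8 and 17.5 CPM (-0.36 ± 0.071, adjusted p = 0.00484), and it was not called without Sayeok 500 µg/mL replicate 2 (adjusted p = 0.0534).

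**Figure D4:**
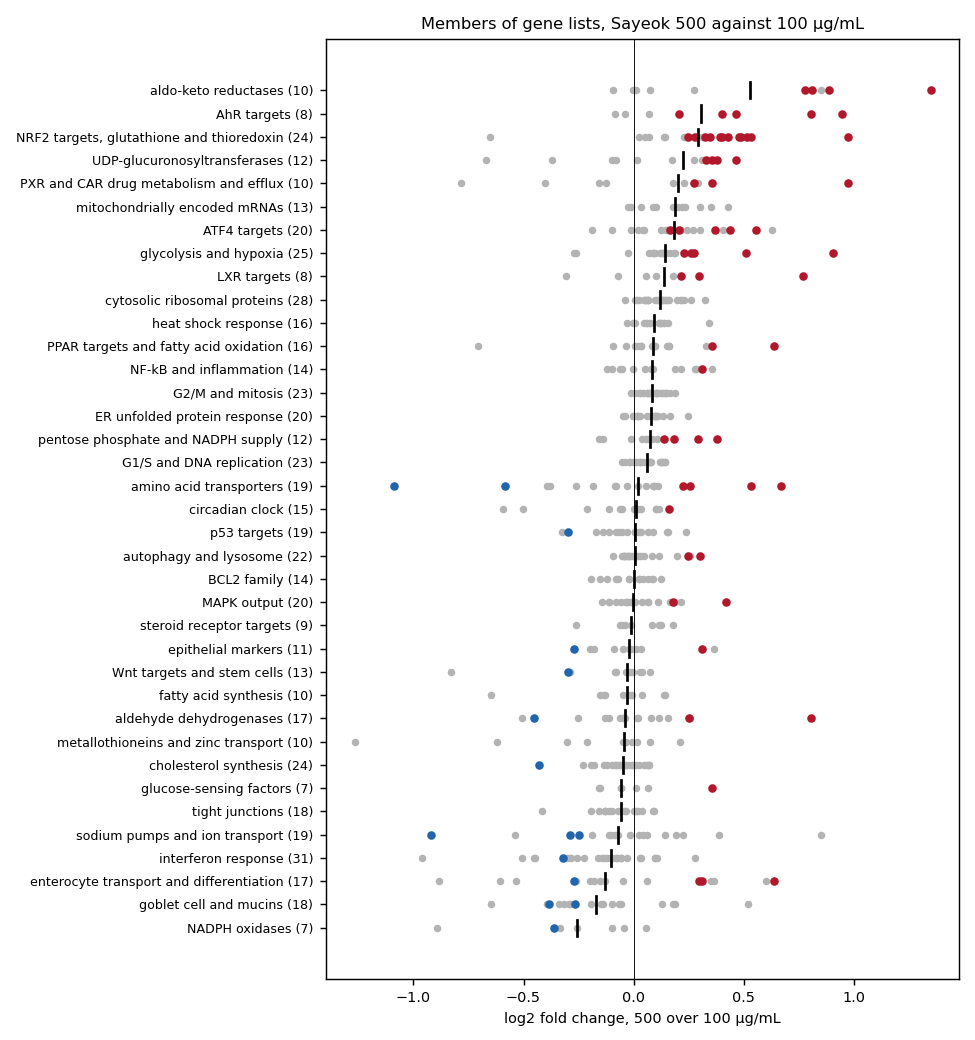
Log2 fold change at 500 over 100 µg/mL (horizontal axis) of every tested member of 37 gene lists with at least 7 tested members (vertical axis, number of tested members in parentheses), with members called higher in red, called lower in blue, not called in grey, and the list's median as a black bar. The medians run from -0.255 for the NADPH oxidases to 0.53 for the aldo-keto reductases.

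Many lists held few or no called genes. None of the 16 heat shock genes, 20 genes of the unfolded protein response of the endoplasmic reticulum, 23 G2/M genes, 23 G1/S genes, 18 tight junction genes, 14 BCL2 family genes or 10 metallothionein and zinc transport genes passed the edgeR test. By DESeq2, 2 heat shock genes and 1 gene of the unfolded protein response were higher and 1 tight junction gene was lower. The heat shock gene HSPA8 (0.074), the chaperone gene HSPA5 (0.13) and the proliferation gene MKI67 (-0.011) are examples of the values. Values above 0 were held by 22 of the 23 G2/M genes (median 0.083) and 18 of the 23 G1/S genes (0.059). The same held for 14 of the 16 heat shock genes (0.094) and 16 of the 20 unfolded protein response genes (0.08). It held for 7 of the 18 tight junction, 7 of the 14 BCL2 family and 3 of the 10 metallothionein and zinc transport genes. The median over all tested genes was -0.0015. Members of a list were measured in the same libraries, so their signs are not independent. How these counts depend on Sayeok 100 µg/mL replicate 2 is not reported here. Of 31 interferon response genes, DDX60 alone was called (-0.32 ± 0.084, adjusted p = 0.0494), and it was called in 0 of the 6 leave-one-out fits (adjusted p = 0.0646 to 0.233). Of 19 p53 targets, SUSD6 alone was called (-0.30), while CDKN1A and MDM2 gave 0.033 and 0.004. None of 28 cytosolic ribosomal protein genes was called, although 27 of them had values above 0 (median 0.12). Without Sayeok 100 µg/mL replicate 2, which had the lowest ribosomal protein share, the median was 0.037 and 23 of 28 were above 0. The 13 mitochondrially encoded mRNAs likewise had no called gene, with a median of 0.19 with that library and 0.005 without it.

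Whether the lower dose step changed the same genes was examined with the Sayeok libraries at 20 µg/mL. Between 100 and 20 µg/mL, edgeR called 0 of 18783 genes (0.0%), with 885 (4.71%) at an unadjusted p under 0.05, and DESeq2 called 0. The steps share the 100 µg/mL libraries, so their values are only set side by side. AKR1C2 changed by 1.35 in the upper step and by 0.22 in the lower, AKR1B10 by 0.81 and 0.10, GCLM by 0.48 and 0.069, and SLC14A1 by -0.92 and -0.29. When the difference of the steps was tested itself, 8 genes (0.0426%) were called. In 6 genes (0.0319%) the upper step was the more positive: AKR1C2 by 1.13 (adjusted p = 0.00118), AKR1C1 by 0.82 (adjusted p = 0.0162), AKR1B10 by 0.70 (adjusted p = 0.00493), EMP1 by 0.49 (adjusted p = 0.0456), ASNS by 0.48 (adjusted p = 0.00502) and TRIM31 by 0.44 (adjusted p = 0.0125). In 2 genes (0.0106%), ATP6V1B1 and CREB3L1, it was the more negative, by -0.68 and -0.60 (adjusted p = 0.00929 for both). The 100 µg/mL libraries enter both steps of this difference. Without Sayeok 100 µg/mL replicate 2, 2 genes remained called, AKR1C2 and ASNS. EMP1 then had a difference of 0.39 (adjusted p = 0.677), and it was called in 3 of the 9 fits that left out a library. AKR1C2 was called in all 9, AKR1B10 and ASNS in 8, AKR1C1 and CREB3L1 in 7 and ATP6V1B1 in 6. For these genes other than EMP1, the fits that lost the call were without a library at 100 µg/mL. Without Sayeok 100 µg/mL replicate 3 the count was 4, and without Sayeok 20 µg/mL replicate 2 it was 15.

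Compared with the vehicle libraries, 106 of the 129 risen genes had all 3 libraries at 500 µg/mL above the vehicle range, against 16% of all tested genes, and 150 of the 196 that fell had all 3 below it, against 16.9%. For some genes the doses lay on opposite sides of the vehicle: 16 of the 129 were below the vehicle range at 100 µg/mL and above it at 500 µg/mL, and 11 of the 196 were above it and then below it. Over all tested genes these patterns occurred in 0.165% and 0.154%. Genes called between the doses were chosen for a gap between these libraries, which favours such patterns. AKR1B10 is an example, with 118, 109 and 114 CPM in the vehicle libraries, 95.3 CPM at most at 100 µg/mL and 159 CPM at least at 500 µg/mL. KRT20, at 256, 244 and 259 CPM in the vehicle libraries, also lay below this range at 100 µg/mL and above it at 500 µg/mL. Among the falls, NAALADL2 measured 18.6, 19.8 and 21.7 CPM in the vehicle libraries, 23.5, 22.9 and 23.4 CPM at 100 µg/mL, and 15.1, 16.8 and 16 CPM after 500 µg/mL. RNF144B followed the same order, from 12.7 to 13.3 CPM in the vehicle to 15.3 to 16.3 CPM and then 11 to 11.2 CPM. AKR1B10, NAALADL2 and RNF144B lay on the same side of the vehicle range at 20 µg/mL as at 100 µg/mL. At 20 µg/mL AKR1B10 measured 88.9, 79.2 and 89.7 CPM, NAALADL2 25.1, 25.5 and 24.1 CPM, and RNF144B 16.3, 14.6 and 16.3 CPM. In these genes the offset from the vehicle libraries was thus not particular to 100 µg/mL, and its cause was not tested. The column names of the vehicle libraries begin with another code than those of the Sayeok libraries. The labels do not say what these codes stand for. In every comparison with the vehicle, an effect of treatment cannot be told apart from a difference between these sets of libraries.

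The same dose step of the other extracts used separate libraries. In Bojungikgi-tang, 85 genes (0.453%) were called between 500 and 100 µg/mL. The 48 genes called in both extracts were 14.8% of the Sayeok list and 56.5% of the Bojungikgi list, and all 48 moved in the same direction. Of the 129 Sayeok rises, 116 had a value above 0 in Bojungikgi, and of the 196 falls, 184 had a value below 0, whereas 50.2% of all tested genes were above 0 and 49.7% below. The medians there were 0.13 and -0.15. They are not comparable with the Sayeok medians, because the genes were selected on their Sayeok values. Tested as a difference between the extracts, 3 genes (0.016%) were called, 2 more positive in Sayeok (0.0106%) and 1 more negative (0.00532%). AKR1C2 rose by 0.55 in Bojungikgi, from 9.65 to 14.1 CPM on average, and Sayeok exceeded this by 0.79 (adjusted p = 0.00769). TRIM31 changed by 0.047 in Bojungikgi, from a mean of 158 to 163 CPM, a difference of 0.36 (adjusted p = 0.0263). CYP1B1 rose by 0.44 in Bojungikgi, from 67.4 to 91.2 CPM, and Sayeok was lower by this measure (-0.36, adjusted p = 0.0263). In a fit of only the 4 groups compared, 0 genes were called. Over the 12 fits that left out a library, the count was 0 to 2, AKR1C2 was called in 10, TRIM31 in 3 and CYP1B1 in 0. AKR1C2 lost its call without Bojungikgi 100 µg/mL replicate 2 or Sayeok 100 µg/mL replicate 3 (highest adjusted p = 0.0552).

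**Figure D5:**
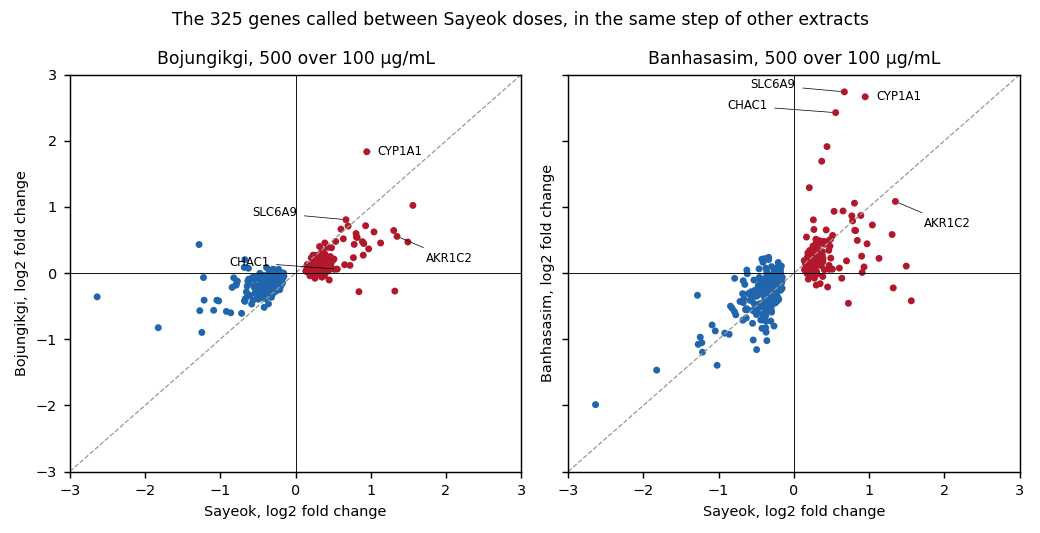
Log2 fold change at 500 over 100 µg/mL in Bojungikgi-tang (left) and Banhasasim-tang (right), on the vertical axes, against that in Sayeok-tang for the 325 genes called in Sayeok, with rises in red, falls in blue and equality as a dashed line. Most points lie in the quadrants of equal sign, and CHAC1, SLC6A9 and CYP1A1 lie far above the line on the right.

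In Banhasasim-tang, with 2 libraries per dose, 781 genes (4.16%) were called. The 140 genes shared with Sayeok were 43.1% of the Sayeok list and 17.9% of the Banhasasim list, and all 140 had the same direction. Of the 129 rises, 114 were above 0 in Banhasasim, and of the 196 falls, 176 were below 0, with medians of 0.26 and -0.26 over these genes, which were selected in Sayeok. The difference between the extracts was called for 151 genes (0.804%), 38 more positive in Sayeok (0.202%) and 113 more negative (0.602%). The count was 87 without Banhasasim 500 µg/mL replicate 2, 84 and 74 without Banhasasim 100 µg/mL replicate 2 or 3, and 99 without Sayeok 500 µg/mL replicate 2 or without Sayeok 100 µg/mL replicate 2. Leaving out a Banhasasim library leaves 1 at that dose, which is assumed to vary like the other groups. Of 20 ATF4 targets, 13 differed between the extracts and 7 did not pass the test, among them ATF3 (-0.39, adjusted p = 0.588) and DDIT3 (-0.65, adjusted p = 0.118). CHAC1 rose by 0.55 in Sayeok and by 2.42 in Banhasasim, a difference of -1.87 (adjusted p = 3.62e-09), and SLC6A9 by 0.67 and 2.74, a difference of -2.07 (adjusted p = 2.52e-06). ASNS rose by 0.37 in Sayeok and 1.69 in Banhasasim, a difference of -1.32 (adjusted p = 1.23e-12). By contrast, AKR1C2 and AKR1C1 rose in both extracts, with differences of 0.27 ± 0.128 (adjusted p = 0.536) and 0.02 ± 0.126 (adjusted p = 0.983), which did not pass the test. The ribosomal RNAs of the mitochondrion, MT-RNR1 and MT-RNR2, showed the largest differences, -3.02 and -2.44, since they rose in Banhasasim and changed by 0.15 and 0.12 in Sayeok, where neither was called. The share of counts from mitochondrial genes was 16.855% and 11.965% in the Banhasasim libraries at 500 µg/mL, against 7.572% to 8.718% in the Sayeok libraries at that dose, and its part in these differences was not tested.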

How the data were processed

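Messenger RNA was sequenced from HT29 cells, with paired reads of 100 bp from a directional MGI kit and 1 µg of total RNA (RIN above 7), per the labels' protocols. The authors deposited expected counts per gene, not normalized, for 60675 genes. The submitters' processing notes name the build GRCh38 and, without roles, RSEM 1.3.3, STAR 2.7.3a, Trim Galore 0.6.5 and FastQC 0.11.9. Not given in the sources used here were the annotation release and whether counting used strand, so reads of overlapping antisense genes may not be separated. RSEM can divide reads between similar genes, which bears on the AKR1C, UGT1A and RASA4 genes. The table holds 240 further columns, which were not used.

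Expected counts were rounded by at most 0.5 (25.48% of values above 0 were not whole). Genes passing edgeR's filterByExpr (minimum count 10) in all 30 libraries were scaled by TMM and fitted with 1 mean for each of 13 groups, and contrasts were tested 2-sided with the robust quasi-likelihood F test (edgeR 4.0.16, limma 3.58.1, R 4.3.3), with Benjamini-Hochberg adjustment over all 18783 genes. CPM are counts-per-million after TMM scaling. The SE of a log2 fold change is its size divided by the square root of F. In data simulated for the comparison of 500 with 100 µg/mL over 18783 genes, the test recovered 38% of planted 1.25-fold, 54% of 1.5-fold, 84% of 2-fold and 96% of 4-fold changes, and 9 of 145 calls were false. Intervals of counting error do not cover the spread between cultures.

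Symbols came from a gene name table (93.21% of IDs), coordinates from GENCODE 29 and promoters from RefSeq (GRCh38.p14). Named genes are the 15 higher and 15 lower called genes with the largest change among those with a symbol, a mean of at least 5 CPM in a group and no overlap between groups. For each list they are called members of at least 1 CPM (up to 6 by smallest p) and up to 3 abundant members not called. For the other tests they are the 5 largest changes each way. Some other members not called, such as AKR1B1, were named after their values were seen. The comparison, the gene lists and the rules were chosen with earlier results of these data known. Alternatives were other scaling, filters, thresholds, fitted libraries, a replicate block, DESeq2 1.42.0 and leaving out each library. Some members of the lists are not reported here.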

Additional observations from a re-analysis of the deposited data

Results flagged for a closer look

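A test of the difference in the upper dose step between Sayeok-tang and Bojungikgi-tang called 3 of 18783 genes (0.016%). These were AKR1C2 (0.79 on the log2 scale), TRIM31 (0.36) and CYP1B1 (-0.36), where a positive value means a more positive change in Sayeok. In a fit of only the groups compared, none of the 3 was called (adjusted p = 0.172 to 0.242). Over the 12 fits that left out a library, AKR1C2 was called in 10, TRIM31 in 3 and CYP1B1 in 0.

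Between Sayeok-tang and Banhasasim-tang, which had 2 libraries per dose, the same test called 151 genes. The largest positive differences of named genes were in the mitochondrial genes MT-ND4L (1.21), MT-ND4 (1.17) and MT-CO1 (1.02), the mitochondrial pseudogene MTCO1P12 (1.1) and the nuclear receptor gene NR0B2 (0.99). These genes fell in Banhasasim (MT-ND4 by -1.06, MT-ND4L by -0.86, MT-CO1 by -0.93, MTCO1P12 by -1.10 and NR0B2 by -0.59) and were not called in Sayeok, where MT-ND4 had a value of 0.10. Over the 10 fits that left out a library, MT-ND4 and MT-ND4L were called in 3, MTCO1P12 in 5, MT-CO1 in 8 and NR0B2 in 9. In a fit of only the groups compared, NR0B2 was called and the 4 mitochondrial sequences were not (adjusted p = 0.182 to 0.367). The largest negative differences were in MT-RNR1 (-3.02) and MT-RNR2 (-2.44), ribosomal RNAs of the mitochondrion, followed by the glycine transporter gene SLC6A9 (-2.07), CHAC1 (-1.87) and the peptide hormone gene ADM2 (-1.81). The Banhasasim libraries at 500 µg/mL held mitochondrial shares of 16.855% and 11.965%, and the part of these shares in the differences was not tested.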

How the results depend on the processing

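The 325 genes called between 500 and 100 µg/mL became 137 at an adjusted p under 0.01 and 155 to 266 when a library was left out. With no low-count filter 736 were called, of which 274 were among the 325 and only 6 lay outside the main filter. A fit of only the groups compared called 456, of which 266 were among the 325, and DESeq2's Wald test called 477, of which 301 were. The lower step (0 called) gave 112 with no filter, 1 in a fit of only the groups compared and 0 to 1 with a library left out. The difference of the steps (8 called) gave 253 with no filter, 13 at a minimum count of 50, 38 by DESeq2's Wald test and 2 to 15 with a library left out. The difference from Bojungikgi (3 called) gave 296 with no filter, 0 with only the groups compared, 9 by DESeq2 and 0 to 2 with a library left out. That from Banhasasim (151 called) gave 324 with no filter and 74 to 134 with a library left out. The cause was not tested. Of 1134 values of 81 named genes under alternatives, 977 kept direction and call, 157 lost the call and 0 reversed. These genes had been chosen as called in the main fit. The alternatives refit the same libraries, so kept calls are no independent support. With the replicate block and only the groups compared, 29 genes lost the call, and without Sayeok 100 µg/mL replicate 2, 24 did. In all 6 fits that left out a Sayeok library of either dose, 53 genes were called.

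Same-numbered libraries of the 2 doses did not deviate together (correlations -0.082, -0.276 and -0.085 over 10742 genes, against -0.171 to 0.224 for different numbers). Between 100 and 20 µg/mL the correlations were 0.231, 0.003 and 0.267 for the same number and -0.356 to 0.07 for different numbers. With 3 libraries per dose, these values do not decide whether the numbers pair the libraries, and the main fit used no pairing. With the replicate block, all libraries gave 408 called genes for 500 against 100 µg/mL and 13 for the difference of the steps. With the replicate block and only the groups compared, the counts were 135 for the main step, 8 for the lower step, 13 for the difference of the steps, 0 against Bojungikgi and 86 against Banhasasim.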
